A study of Mus musculus with 2 samples.

Results

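The 7 mouse genes described here have human or mouse counterparts tied to the risk of autoimmune diabetes, and were followed through the immune cells of the pancreatic islet: Ptpn22, Ptpn2, Sh2b3, Tyk2, Slc11a1, Cd101 and Ubash3a. They were chosen by name, and all 7 had a row among the 27998 genes of the deposited matrices. The cells had been sorted as CD45.1+ from islets of female NOD/ShiLtJ mice, an inbred strain that develops autoimmune diabetes spontaneously and carries the CD45.1 form of the leukocyte surface protein CD45. One group was 7 weeks old and the other 12 weeks old, with no other treatment or allele named in the labels. Each age is represented by 1 droplet library (10x Genomics Chromium, 3' chemistry), and how many mice each held is not stated. The question asked here is which class of islet leukocyte holds each gene, and at what level at either age.

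Most of these genes restrain or carry signals in leukocytes. Ptpn22 is a tyrosine phosphatase that works with the kinase Csk to quieten T cell receptor signalling, and Ubash3a is a second brake on that receptor. Ptpn2 is a phosphatase that switches off JAK kinases and STAT factors, Sh2b3 (also called LNK) is an adaptor that dampens cytokine receptor signalling through JAK2, and Tyk2 is a JAK kinase serving the receptors for type I interferon and IL-12. Slc11a1 (NRAMP1) pumps metal ions out of the phagosome of macrophages, and Cd101 is an immunoglobulin-family surface protein of myeloid cells and T cells.

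The 5' flanks of 3 members with unlike class patterns are shown because one short motif occurs in all of them. Each run is the 250 bases before the gene's start in the RefSeq promoter table (GRCm38.p6), 5' to 3' on the gene's strand, and capitals mark matches on either strand to GAGGAA, a core bound by ETS factors and PU.1, or to TGTGGT, a core bound by RUNX factors.
Ptpn22, chr3:103859545-103859794, plus strand: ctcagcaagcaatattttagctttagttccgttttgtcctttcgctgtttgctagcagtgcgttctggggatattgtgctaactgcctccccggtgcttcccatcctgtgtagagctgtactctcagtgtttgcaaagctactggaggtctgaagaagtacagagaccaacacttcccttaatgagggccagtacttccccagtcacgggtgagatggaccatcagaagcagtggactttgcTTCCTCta
Slc11a1, chr1:74374953-74375202, plus strand: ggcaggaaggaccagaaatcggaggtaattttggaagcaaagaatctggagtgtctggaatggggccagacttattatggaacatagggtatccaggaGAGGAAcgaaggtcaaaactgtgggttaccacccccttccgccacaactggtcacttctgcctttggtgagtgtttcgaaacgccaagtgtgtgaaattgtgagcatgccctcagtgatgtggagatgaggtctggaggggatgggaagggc
Cd101, chr3:101029554-101029803, minus strand: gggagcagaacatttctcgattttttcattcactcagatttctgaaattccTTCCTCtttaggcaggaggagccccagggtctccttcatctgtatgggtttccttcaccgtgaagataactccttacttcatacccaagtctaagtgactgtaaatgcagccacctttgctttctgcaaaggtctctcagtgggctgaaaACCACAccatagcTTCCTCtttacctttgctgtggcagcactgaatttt
GAGGAA begins 8 bases before the Ptpn22 start, 152 before the Slc11a1 start, and 199 and 36 before the Cd101 start. Cd101 also holds TGTGGT, 49 bases before its start. Over all 32851 promoter windows of this length in the table, 23.3% hold GAGGAA and 14.0% hold TGTGGT, so a match is a common event and is given here as a description. The windows of Sh2b3, Tyk2 and Ubash3a hold neither core, nor the interferon gamma-activated site TTCNNNGAA (7.02% of windows), the core of the interferon-stimulated response element (2.98%) or TATAAA (12.4%). The Sh2b3 window lies inside the gene span given below. Those of Ubash3a, Slc11a1 and Cd101 overlap the start of their spans, read on the gene's strand. No window of Ptpn2 is described. A second Ptpn22 start, on chromosome 3, has both cores and 1 TTCNNNGAA match in its window, which lies inside the gene span.

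In the GENCODE annotation of GRCm38, the same assembly as the authors' mm10, Ptpn22 lies on chromosome 3 from 103859795 to 103912247, and Cd101 lies 2.83 megabases from it on the same chromosome, from 100993529 to 101029556. Ptpn2 is on chromosome 18 (67665511 to 67724595), Sh2b3 on chromosome 5 (121815488 to 121837646), Tyk2 on chromosome 9 (21104068 to 21131243), Slc11a1 on chromosome 1 (74375195 to 74386062) and Ubash3a on chromosome 17 (31207873 to 31246892). Values are UMIs counted per gene, so isoforms were not told apart. Atxn2 overlaps Sh2b3 on the opposite strand, 1700084C06Rik overlaps Tyk2 in the same way, and Ptpn22 overlaps Gm15472 and Gm43065 on its own strand. No source used here says how reads in these overlaps were assigned.

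The 7 week library held 1113 barcodes and 8701184 unique molecular identifiers (UMIs, 1 per captured transcript), and the 12 week library 2812 barcodes and 19288252 UMIs. After filtering, 1099 and 2741 cells remained, with medians of 5647 and 4924 UMIs, and the libraries shared 2 barcodes. Cells were placed in 8 classes by gate genes: CD4 T (285 cells at 7 weeks and 745 at 12), Foxp3+ T (71 and 103), CD8 T (159 and 443), Ncr1+ (68 and 63), B (170 and 637), macrophage (8 and 31), dendritic (50 and 148) and plasmacytoid dendritic, or pDC (22 and 47). All pairs of values below are 7 weeks first and 12 weeks second. T cell gates also required CD3 UMIs, and a cell passing the gates of 2 lineages was left out. Genes that the gates did not use were read as a check. The 5 B cell markers summed to 3564 and 3964 CPM, the usual scale of UMIs against the class total, in B cells and to at most 76.2 CPM in any other class. The 6 macrophage markers reached 18255 and 29744 CPM in macrophages, but also 2419 and 2244 CPM in dendritic cells. The 6 markers for Ncr1+ cells came to 4550 and 5332 CPM there and to 4612 and 6204 in pDC, and the 7 dendritic markers to 681 and 637 CPM in dendritic cells and 685 and 812 in pDC. The 3 markers for CD8 T cells came to 9807 and 10897 CPM there and to 10276 and 15002 in Ncr1+ cells. The 2 markers for CD4 T cells came to 498 and 497 CPM there and to 805 and 779 in Foxp3+ T cells. The lists for Ncr1+, dendritic, CD8 T and CD4 T cells did not set those classes apart. The classes are therefore called by their gate genes. Trac, Trbc1 and Trbc2 were not among the genes measured. Of the 5 neutrophil genes listed, S100a8, S100a9 and Retnlg stood at 0 UMIs in all 8 classes of both libraries. Csf3r and Ly6g did not, with 20 UMIs of Csf3r in macrophages and 10 in dendritic cells at 12 weeks.

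**Figure D1:**
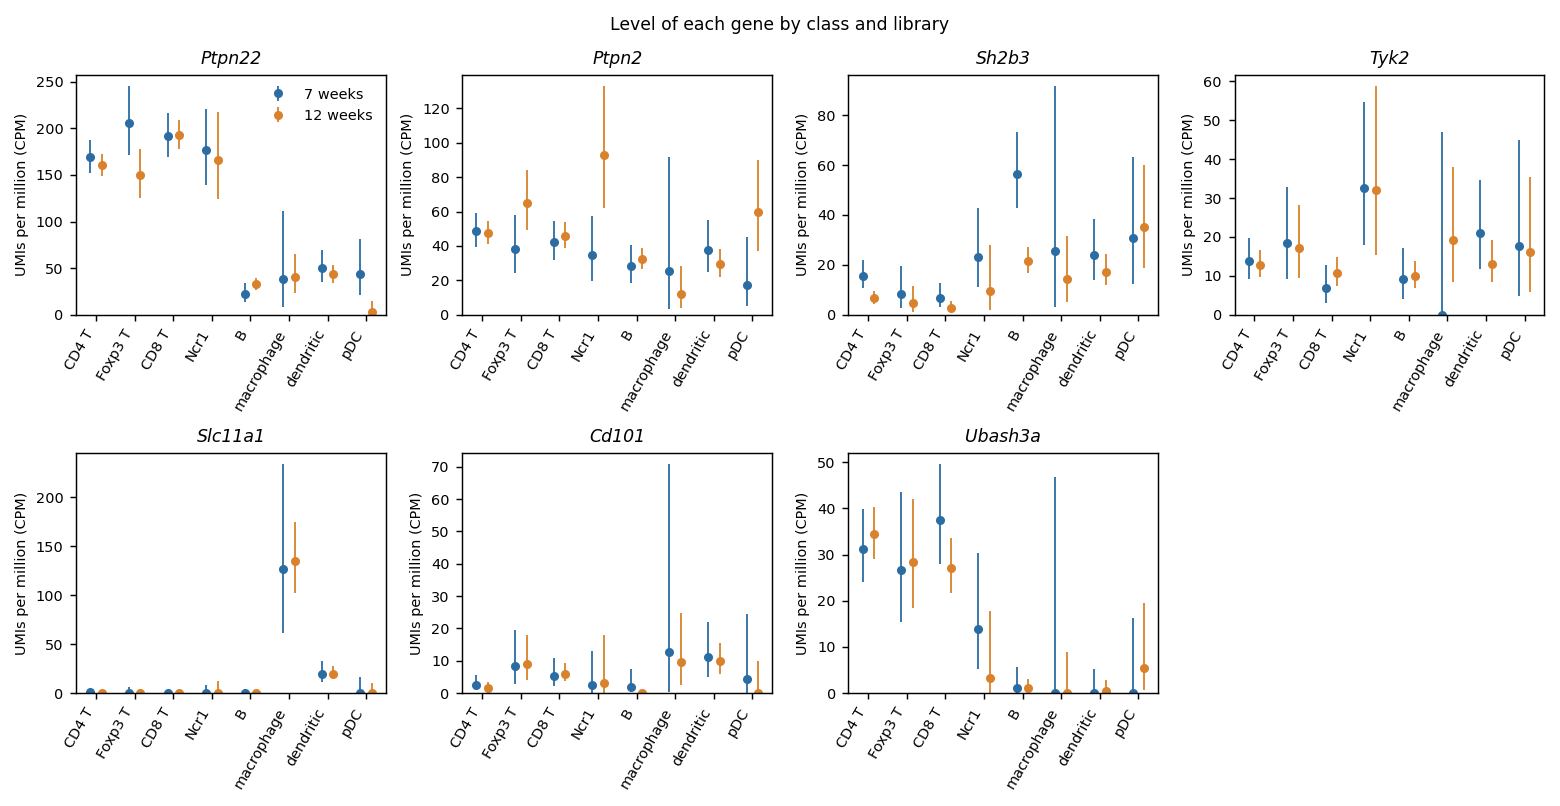
Level of each of the 7 genes (y axis, CPM, linear) in the 8 classes (x axis) at 7 weeks (blue) and 12 weeks (orange); points are summed UMIs over the class total and bars are 95% Poisson intervals, which cover counting error only. Ptpn22 stands between 150 and 206 CPM in the T and Ncr1+ classes and at or under 50.5 CPM elsewhere, and Slc11a1 at 127 and 135 CPM in macrophages.

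Ptpn22 had the most UMIs of the 7 and was highest in T and Ncr1+ cells. Its level in CD4 T cells was 169 and 161 CPM. It was 206 and 150 in Foxp3+ T cells, 192 and 193 in CD8 T cells, and 177 and 166 in Ncr1+ cells. It was 50.5 and 43.4 CPM in dendritic cells, 38.1 and 40.9 in macrophages, 22.2 and 32.6 in B cells, and 43.9 and 2.71 in pDC. The 4 high classes did not differ from their neighbours in the order beyond their intervals, and the step from CD4 T to dendritic cells was the only one where the intervals were apart in both libraries. With each cell thinned to 3000 UMIs, the share of CD4 T cells holding Ptpn22 was 42.5% (exact binomial 95% interval 36.6 to 48.6) and 34.1% (30.7 to 37.6), against 3.66% (1.35 to 7.79) and 8.95% (6.85 to 11.4) for B cells, at median depths before thinning of 5596 and 4595 UMIs against 5062 and 4593. One random thinning is shown: a second gave 53.0% in place of 39.4% for Ncr1+ cells at the younger age. Before thinning the CD4 T shares were 59.6% and 49.7%, and the B cell shares 11.2% and 14.0%.

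Classes were contrasted by an edgeR quasi-likelihood test on 16 sums (8 classes in 2 libraries) over 8947 genes. Here the replicates of a class are the libraries of both ages, whose mice and age differ together. A library term takes out any difference shared by all classes. The spread in the test is therefore that of class differences between the 2 libraries, and not that between mice or ages as such. Cd101 had too few UMIs to enter, and 6 of 7 members were tested. In T cells (the 3 T classes averaged) against B cells, 2 members were higher and 1 was lower, where 17% of all genes were higher and 18.1% lower. Summed over the 3 T classes Ptpn22 stood at 182 and 172 CPM against 22.2 and 32.6 in B cells. The fitted log2 fold change was 2.33 (SE 0.22, adjusted p = 2.5e-09). Values given for 1 library alone are log2 ratios of summed CPM, without TMM scaling and with classes pooled by UMIs. The fit weights the classes of a side equally, so the measures can differ apart from any library difference. For Ptpn22 the 7 week library alone gave 3.04 and the 12 week library 2.40. Against macrophages and dendritic cells, which the fit weighted equally, 3 members were higher in T cells and 2 lower (22.1% and 21.9% of all genes). Ptpn22 was higher there as well, by 1.85 (SE 0.22, adjusted p = 8.9e-08). The summed CPM of those 2 classes was 49.3 and 42.9. CPM and ratios given for the 2 classes together are of such sums, in which dendritic cells hold most UMIs.

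The pDC level of Ptpn22 differed between the libraries and rests on few molecules. At 7 weeks 10 UMIs were counted, 8 of them in 1 cell, and at 12 weeks 1 UMI in 47 cells. The contrast of pDC with dendritic cells called Ptpn22 lower by 1.51 (SE 0.51, adjusted p = 0.034), one of 2 members lower and none higher (11.7% and 9.06% of all genes). The call was lost without TMM scaling, without a library term and without the doublet filter (adjusted p = 0.072, 0.074 and 0.075, within a range of 3.1e-05 to 0.075 over 9 alternatives), and without cycling cells the value was -3.26. The 7 week library alone gave a log2 ratio of -0.20 and the 12 week library -4.00. T cell marker genes in the pDC sum came to 259 CPM at 7 weeks and 97.5 at 12, and their part in the result was not tested.

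Ubash3a, the second brake on the T cell receptor, was found mainly in T cells. CD4 T cells held 31.3 and 34.4 CPM, with 37.6 and 27.2 in CD8 T cells and 26.8 and 28.5 in Foxp3+ T cells. Ncr1+ cells held 14.0 and 3.20 CPM (6 and 1 UMIs), B cells 1.01 and 1.16 CPM (1 and 4 UMIs), dendritic cells 0 and 1 UMI, and macrophages none in either library. In pDC 0 and 2 UMIs were counted. The 3 T classes overlapped, and every other class had a lower CPM in both libraries. For the 8 macrophages at 7 weeks the interval reached 46.9 CPM, so that sum does not set them below T cells. Ubash3a was higher in T than in B cells by 4.41 (SE 0.43, adjusted p = 7.1e-09), and the summed CPM was 32.5 times as high at 7 weeks (95% counting interval 5.73 to 1293) and 26.7 times (10.3 to 98.7) at 12 weeks. Against macrophages and dendritic cells the edgeR adjusted p was 3.8e-08. Their 7 week sum was 0, and with a floor of 3 UMIs in its place the level was 8.63-fold higher. The 95% counting interval of that ratio starts lower, at 6.92. At 12 weeks, against 1 UMI, the ratio was 72.4 (12.9 to 2869).

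Ncr1+ cells, which include natural killer cells, differed from CD4 and CD8 T cells in 2 of the 6 members, 1 in each direction (5.34% of all genes higher and 3.99% lower). Tyk2, the kinase of interferon and IL-12 receptors, was higher by 1.5 (SE 0.40, adjusted p = 0.014). Its level was 32.6 and 32.0 CPM in Ncr1+ cells (14 and 10 UMIs), 13.7 and 12.8 in CD4 T cells and 6.77 and 10.6 in CD8 T cells. The other classes held between 0 and 21.1 CPM of Tyk2, with overlapping intervals all along the order. The 0 was that of 8 macrophages at 7 weeks, whose interval reached 46.9 CPM. Ubash3a was lower in Ncr1+ cells by 1.81 (log2 -1.81, SE 0.49, adjusted p = 0.017). The 7 week library alone gave -1.28 and the 12 week library, from 1 UMI in Ncr1+ cells, -3.29. With the gates taken exactly as the rule writes them, without the CD3 requirement and with overlaps kept, neither call held (adjusted p = 0.094 for Tyk2 and 0.19 for Ubash3a). DESeq2 gave 0.0034 for Tyk2 and 0.055 for Ubash3a, and over 9 alternatives the adjusted p ran from 0.0034 to 0.094 and from 0.0048 to 0.19. Jak1, which pairs with Tyk2 at the type I interferon receptor, was higher in Ncr1+ cells too, by 0.82 (SE 0.17, adjusted p = 0.0019), at 440 and 525 CPM.

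Among T cells no member was called. For CD8 against CD4 T cells edgeR called 0 of 6 (3.62% of all genes higher and 4.85% lower), 1 had an unadjusted p under 0.05, and DESeq2 called 0. That member was Sh2b3, with a log2 difference of -1.19 (SE 0.40, adjusted p = 0.064). For Foxp3+ against CD4 T cells edgeR and DESeq2 called 0 of 6, and 0 had an unadjusted p under 0.05 in edgeR (2.01% and 2.24% of all genes were called). These non-calls do not show equal levels: the Ptpn22 difference of Foxp3+ against CD4 T cells was -0.03 with an SE of 0.22.

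**Figure D2:**
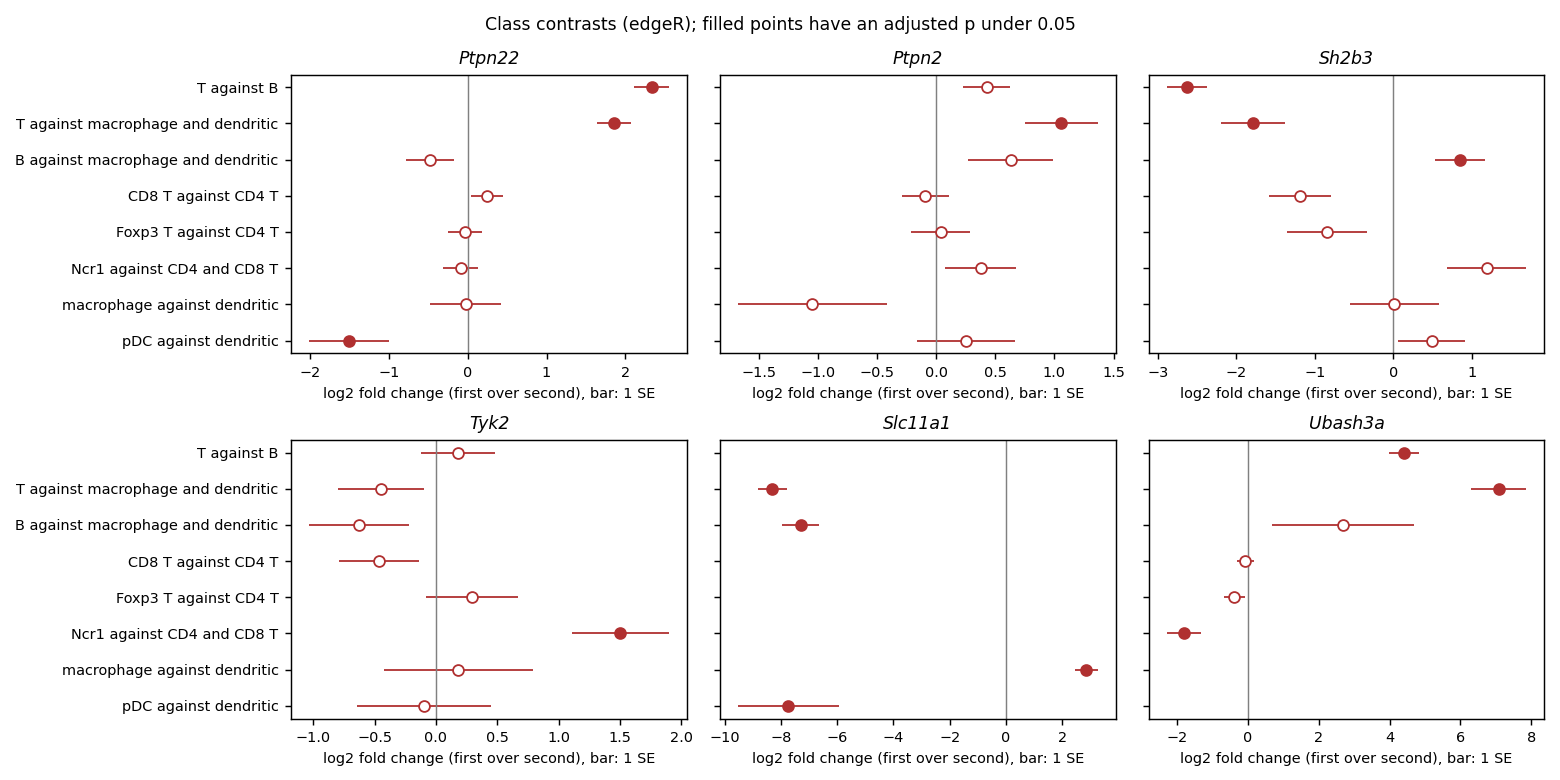
Log2 fold change of 6 members (x axis, scale differs by panel) in 8 class contrasts (y axis), first named class over the second; bars are 1 SE and filled points have an adjusted p under 0.05 in edgeR. Contrasts with at most 3 UMIs on both sides in both libraries are not drawn; Sh2b3 and Slc11a1 lie left of 0 for T cells against macrophages and dendritic cells, and Ptpn22, Ptpn2 and Ubash3a right of it.

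Sh2b3, the cytokine receptor adaptor, had the reverse pattern to Ptpn22. B cells held 56.4 and 21.5 CPM, pDC 30.7 and 35.2, dendritic cells 23.9 and 17.2, and macrophages 25.4 and 14.4. Ncr1+ cells held 23.3 and 9.60 CPM, CD4 T cells 15.7 and 6.61, Foxp3+ T cells 8.37 and 4.56 and CD8 T cells 6.77 and 2.81. B cells lay above all 3 T classes at both ages. Sh2b3 was lower in T than in B cells (log2 -2.63, SE 0.26, adjusted p = 4.0e-09) and lower in T cells than in macrophages and dendritic cells (log2 -1.79, SE 0.41, adjusted p = 7.8e-04), where the 7 week library alone gave -1.05 and the 12 week library -1.75. For B cells against macrophages and dendritic cells, 1 member was higher and 1 lower (18.5% and 19.8% of all genes). Sh2b3 was the higher one, by 0.85 (SE 0.32, adjusted p = 0.036), and this call was lost in DESeq2, without TMM scaling, without a library term and with the gates as written (adjusted p = 0.11, 0.066, 0.11 and 0.067; range 0.020 to 0.11). For B cells the 7 week library alone gave 1.23 and the 12 week library 0.36. Its paralog Sh2b2 was also higher in B cells, at 24.2 and 6.11 CPM against 0.755 and 0.354 in T cells (T against B log2 -4.31, SE 0.65, adjusted p = 6.3e-06).

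Ptpn2, the JAK and STAT phosphatase, was spread over every class. CD4 T cells held 48.4 and 47.4 CPM, with 42.1 and 45.9 in CD8 T cells, 38.5 and 64.9 in Foxp3+ T cells and 34.9 and 92.8 in Ncr1+ cells. B cells held 28.2 and 32.3 CPM, dendritic cells 37.9 and 29.3, macrophages 25.4 and 12.0 (2 and 5 UMIs) and pDC 17.6 and 59.6. No neighbouring classes in this order were apart. Ptpn2 was higher in T cells than in macrophages and dendritic cells by 1.06 (SE 0.31, adjusted p = 0.0066), although the 7 week library alone gave 0.29. In that fit macrophages, with 2 and 5 UMIs, weighed as much as dendritic cells. T against B cells missed the threshold (0.43, SE 0.20, adjusted p = 0.099), and passed only without TMM scaling (0.67, adjusted p = 0.0084), 1 of 9 alternatives, which also moved the median of all genes from -0.02 to 0.22. Its close relative Ptpn1 did not pass in T against B cells either (-0.14, SE 0.14, adjusted p = 0.47).

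Slc11a1, the phagosomal metal pump, was the macrophage gene of the set. Macrophages held 127 CPM (10 UMIs in 8 cells) at 7 weeks and 135 CPM (56 UMIs in 31 cells) at 12 weeks, and dendritic cells 19.7 and 19.9 CPM (14 and 38 UMIs). The dendritic UMIs lay in few cells: 6 of 50 at 7 weeks and 18 of 148 at 12 weeks, with up to 6 and 5 UMIs in 1 cell. In the CD8 T, Foxp3+ T, Ncr1+ and pDC classes no UMI was counted, CD4 T cells had 2 and 1, and B cells 0 and 1. The steps from macrophage to dendritic and from dendritic to the lymphocyte classes were apart in both libraries. Slc11a1 was the 1 member called higher in macrophages than in dendritic cells, by 2.85 (SE 0.41, adjusted p = 3.2e-05), with 5.88% of all genes higher and 4.52% lower. The summed ratios were 6.46 (2.57 to 15.6), then 6.78 (4.41 to 10.5). It was called lower in T cells and in B cells against macrophages and dendritic cells (adjusted p = 7.9e-12 and 6.2e-09), and the level in macrophages and dendritic cells was 60.2 times (15 to 526) and 342 times (59.8 to 13636) that in T cells. For B cells at 7 weeks the level was at least 10.0-fold lower. For pDC against dendritic cells the same floor gave levels 1.49-fold and 2.44-fold lower (edgeR adjusted p = 0.0028). The counting intervals there start at 1.06-fold and 1.89-fold.

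With the gates taken as written, the T cell sum held 4.60 and 3.87 CPM of Slc11a1 (25 and 39 UMIs), and the T cell contrast with macrophages and dendritic cells shrank from -8.32 to -4.48. These gates overlap, so a cell that passes several T gates is counted in each of them. The macrophage gate as written held 11 cells at 7 weeks in place of 8. In the thinned shares Slc11a1 was seen in 62.5% (24.5 to 91.5) of the 8 macrophages at 7 weeks and 32.3% (16.7 to 51.4) of 31 at 12 weeks. After thinning 0 of 151 CD8 T cells at 7 weeks had a UMI. A count of 0 allows up to 3 such cells, or 1.99% (the exact interval ends at 2.41%); this limits cells with a UMI, not cells expressing the gene, and comes with a median depth of 6126 UMIs against 10100 in macrophages before thinning.

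Cd101 was the scarcest member, with 40 UMIs in all kept cells at 7 weeks and 69 at 12 weeks, or 4.68 and 3.73 CPM. Macrophages held 12.7 and 9.62 CPM (1 and 4 UMIs), dendritic cells 11.2 and 9.93 (8 and 19 UMIs), Foxp3+ T cells 8.37 and 9.11 (5 and 8 UMIs) and CD8 T cells 5.27 and 5.93 (7 and 19 UMIs). CD4 T cells held 2.45 and 1.60 CPM, and B cells 2.01 and 0. No neighbouring classes were apart. The ratios of Foxp3+ to CD4 T cells were 3.42 (0.787 to 14.9) and 5.71 (1.81 to 18.5), and that of CD8 to CD4 T cells 2.15 (0.588 to 8.60) and 3.72 (1.5 to 10.5). Without the filter on low counts Cd101 entered the edgeR test. It was called higher in T than in B cells (2.81, adjusted p = 0.0044) and lower in B cells than in macrophages and dendritic cells (-4.09, adjusted p = 6.3e-05). Both calls rest on 2 and 0 UMIs in B cells. No other contrast was called there, with Foxp3+ against CD4 T cells at 2.02 (adjusted p = 0.089) and CD8 against CD4 T cells at 1.60 (adjusted p = 0.094). T cells against macrophages and dendritic cells gave -1.28 (adjusted p = 0.059). The share of all genes called in this setting is not given.

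**Figure D3:**
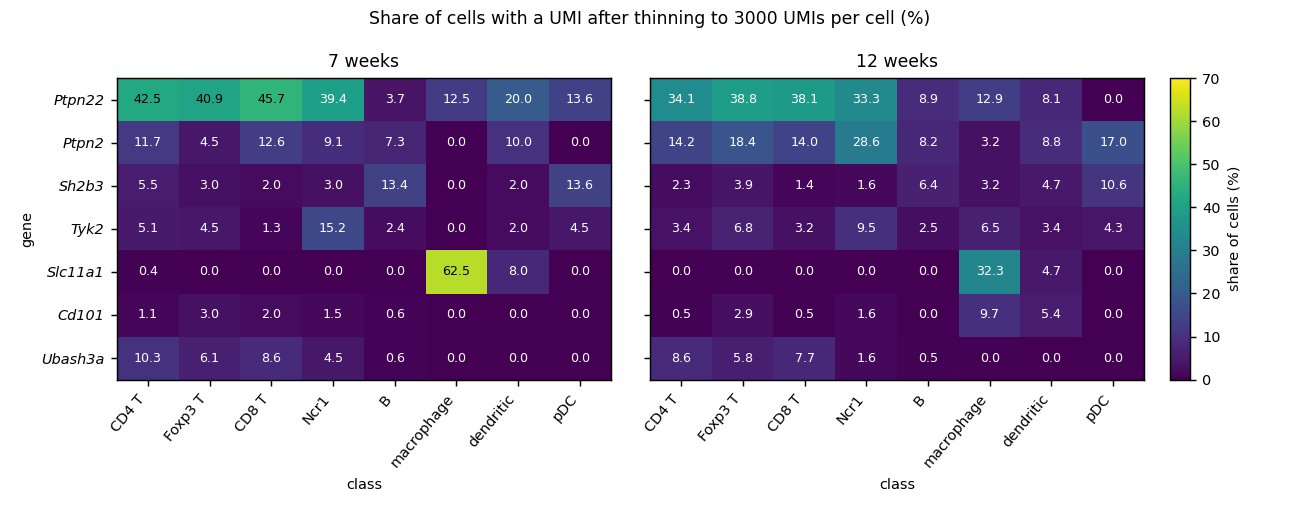
Percentage of cells (colour and printed value) with at least 1 UMI of each gene (rows) in each class (columns) after every cell was thinned to 3000 UMIs, at 7 weeks (left) and 12 weeks (right). Ptpn22 stands between 33.3% and 45.7% in the T and Ncr1+ classes, and the highest value, 62.5% for Slc11a1, rests on 8 cells.

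The ages were compared by the ratio of CPM at 12 weeks over 7 weeks, counted as past the threshold at 1.5-fold with at least 50 UMIs in classes of at least 50 cells. No test could be run between single libraries, so a ratio compares the libraries and not the ages as such. Ratios over all kept cells also depend on the mix of classes, whose part was not tested. B cells were 170 of 1099 kept cells at 7 weeks and 637 of 2741 at 12 weeks. Over all kept cells 1 of 7 members, Sh2b3, was lower at 12 weeks and 0 higher (7.12% and 5.31% of all genes). Its levels of 20.1 and 10.7 CPM gave 0.532 (0.431 to 0.656). In B cells the ratio was 0.382 (0.266 to 0.550) and in CD4 T cells 0.422 (0.247 to 0.721), 1 of 3 and 1 of 5 members with enough UMIs (in B cells 10% of all genes were higher and 7.31% lower, in CD4 T cells 5.13% and 7.44%). The CPM was lower at 12 weeks in 7 of 8 classes, pDC being the exception (30.7 and 35.2 CPM), and 2 of the 8 intervals excluded 1. The thinned share of B cells holding Sh2b3 was 13.4% (8.60 to 19.6), then 6.44% (4.66 to 8.63). In the B cell sum the 3 plasma cell genes stood at 139 and 1963 CPM, the 5 acinar genes at 46.3 and 121, and the 4 endocrine genes at 8.06 and 124. In CD4 T cells acinar genes stood at 8.80 and 133 CPM and endocrine genes at 19.1 and 1670. Their part in the Sh2b3 ratios was not tested. Without pancreatic, ribosomal and blood genes in the total, and under the other 5 alternatives, the B cell ratio ran from 0.369 to 0.426.

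Ptpn2 was above 1 in several classes. In Foxp3+ T cells it was past the threshold at 1.69 (1.02 to 2.87), 1 of 2 members with enough UMIs, where 11% of all genes were higher and 8.32% lower. Acinar genes in that sum stood at 18.4 and 147 CPM and endocrine genes at 16.7 and 158, and their part was not tested. Ncr1+ cells (15 and 29 UMIs) gave 2.66 (1.38 to 5.34) and pDC (4 and 22 UMIs) 3.39 (1.15 to 13.5), both under the UMI minimum. In CD4 T, CD8 T and B cells the ratios were 0.979 (0.767 to 1.26), 1.09 (0.796 to 1.51) and 1.15 (0.751 to 1.80). Whether the classes differ in this ratio was not tested. Ptpn22 gave 0.875 (0.815 to 0.941) over all kept cells, 0.948 (0.833 to 1.08) in CD4 T cells, 1.01 (0.868 to 1.17) in CD8 T cells and 1.47 (0.925 to 2.44) in B cells. In Foxp3+ T cells it gave 0.731 (0.567 to 0.942), short of the threshold. Ubash3a gave 1.10 (0.816 to 1.5) in CD4 T cells and 0.723 (0.505 to 1.04) in CD8 T cells. CD8 T cells (5.05% of all genes higher, 6.81% lower), Ncr1+ cells (6.25% and 7.58%) and dendritic cells (10.3% and 7.85%) had 0 of 3, 0 of 1 and 0 of 4 members past the threshold. In dendritic cells the endocrine genes stood at 36.5 and 13459 CPM. Macrophages and pDC had too few cells for this count.

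**Figure D4:**
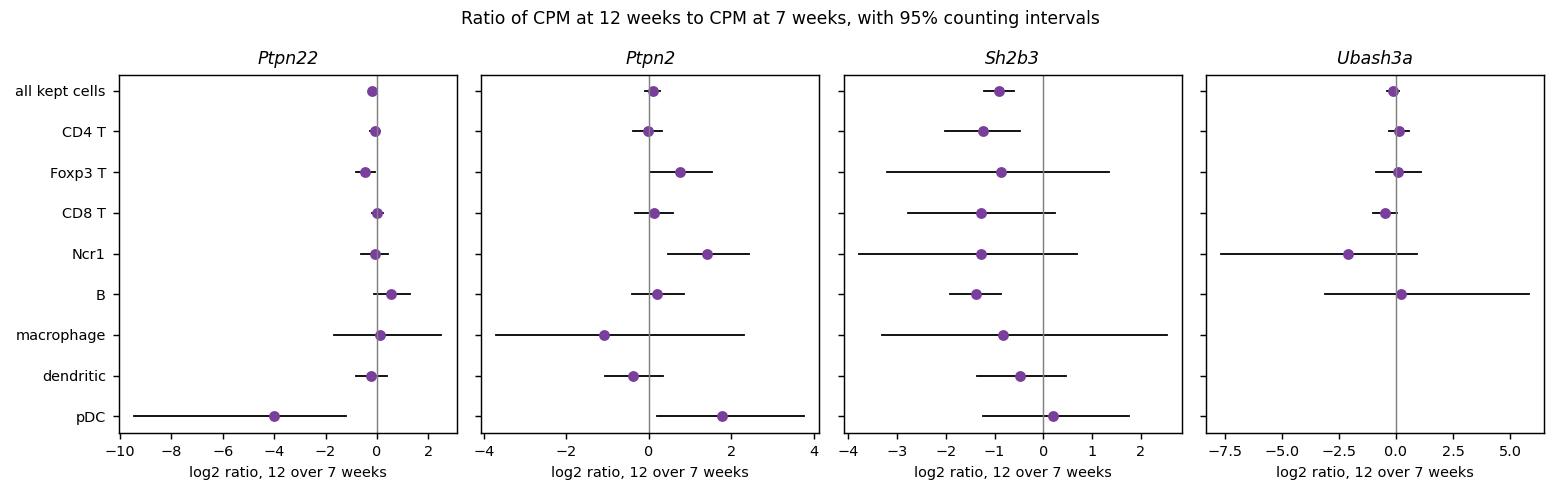
Log2 ratio of CPM at 12 over 7 weeks (x axis, scale differs by panel) for 4 members in all kept cells and the 8 classes (y axis), with 95% intervals that cover counting error only; classes at 0 UMIs in a library are not drawn. The Sh2b3 intervals lie left of 0 in all kept cells, CD4 T and B cells, and the Ptpn2 intervals right of 0 in Foxp3+ T, Ncr1+ and pDC.

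The partners of these genes in receptor and cytokine signalling (38 listed and tested) split by class as follows. In T against B cells 13 were higher and 10 lower (17% and 18.1% of all genes), with a median log2 fold change of 0.03 beside -0.02 over all genes. Cd247, the receptor zeta chain, stood at 286 and 294 CPM in T cells against 18.1 and 7.86 in B cells (4.30, adjusted p = 7.5e-12), and Zap70, the kinase it recruits, was higher by 4.01 (adjusted p = 1.5e-10). Syk, the corresponding kinase of B and myeloid cells, stood at 3.02 and 2.36 CPM in T cells against 288 and 244 in B cells (-6.98, adjusted p = 1.3e-20). Csk, the partner of Ptpn22, was lower in T cells, at 150 and 120 against 260 and 220 CPM (-1.03, SE 0.13, adjusted p = 2.0e-07). Jak1 missed the threshold (-0.01, SE 0.16, adjusted p = 0.99). Ubash3b, the broadly expressed relative of Ubash3a, was higher in T cells by 0.96 (adjusted p = 9.5e-04), and Slc11a2 missed it (1.01, SE 0.46, adjusted p = 0.096). Against macrophages and dendritic cells 16 partners were higher and 15 lower (22.1% and 21.9% of all genes), with a median of 0.15 beside 0.09 over all genes. The largest calls there were Cd247 (5.17, adjusted p = 2.5e-12) and Lck (5.05, adjusted p = 3.9e-13), the first kinase of the T cell receptor pathway, and in the other direction Syk (-6.03, adjusted p = 2.4e-17) and Sh2b2 (-4.27, adjusted p = 4.2e-04). Lck stood at 702 and 727 CPM in T cells against 61.9 and 15.9.

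Of 35 other genes proposed as diabetes candidates, 31 were tested. In T against B cells 19 were higher and 8 lower (17% and 18.1% of all genes), with a median of 1.83 beside -0.02 over all genes. Cd28, a costimulatory receptor, stood at 253 and 286 CPM against 12.1 and 4.66 (4.97, adjusted p = 5.6e-13), and Cd6, another T cell surface receptor, was higher by 4.61 (adjusted p = 5.1e-11). Ctsh, a lysosomal protease, was lower in T cells, at 12.6 and 11.1 CPM against 376 and 419 (-5.67, adjusted p = 1.1e-18), as was Tlr7, a sensor of RNA (-3.77, adjusted p = 1.1e-06). Against macrophages and dendritic cells 18 were higher and 8 lower (22.1% and 21.9% of all genes), with a median of 1.44 beside 0.09. Cd28 and Cd6 were again the largest higher calls (8.27 and 7.44, adjusted p = 2.1e-13 and 9.3e-11), and Ctsh was lower by 6.73 (log2 -6.73, adjusted p = 7.9e-21). Fcgr1, an antibody receptor, stood at 0.252 and 0.945 CPM in T cells against 111 and 157 (-8.04, adjusted p = 5.0e-18).

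The genes most like each member over the 16 sums were named by Pearson correlation of log2(CPM + 10), as a description with no test, since the points share libraries and depth. For Ptpn22 they were Ipcef1 (0.95), Prkch (0.94) and Glipr2 (0.94), and for Ubash3a Pdcd1 (0.96), Bcl11b (0.93) and Ptger2 (0.93). For Slc11a1 they were Fcgr1 (0.998), Clec4a3 (0.996) and Pla2g7 (0.996). For Sh2b3 they were Dennd5b (0.88), Aff4 (0.86) and Tfeb (0.86), for Ptpn2 Hnrnpr (0.89), Sde2 (0.87) and Prkab1 (0.86), and for Tyk2 Tab2 (0.93), H2-Q6 (0.90) and Hspa13 (0.89). Cd101 had too few UMIs for this.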

How the data were processed

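The authors deposited whole-number UMI counts per gene and barcode for 2 libraries, not normalized. Per the submitters' processing notes, Cell Ranger 1.3.1 and the mm10 build were used. No source used here names the annotation. The members and lists were chosen with earlier results of these data known. Barcodes with under 200 genes or over 10% mitochondrial UMIs were removed (4 and 8). Doublets were scored by the Scrublet method and the highest-scoring barcodes removed at 1 loading-dependent rate in both libraries (10 and 63). The gates were CD4 T (Cd4 at least 1 UMI, no Cd8a or Cd8b1), Foxp3+ T (at least 1), CD8 T (Cd8a and Cd8b1 at least 2, no Cd4), Ncr1+ (at least 1), B (Cd79a at least 2), macrophage (C1qa, C1qb and C1qc at least 10), dendritic (Cst3 and H2-Aa at least 10 each) and pDC (Siglech at least 3), made disjoint, with at least 2 CD3 UMIs for T cells. Cells without a class numbered 209 and 467, and cells of 2 lineages 57 and 57.

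UMIs were summed by class and library and given as CPM with 95% Poisson intervals; shares carry exact Clopper-Pearson intervals and age ratios exact conditional binomial ones. All cover counting error only. Class contrasts used edgeR 4.0.16 (quasi-likelihood, TMM, filterByExpr, library as a term, Benjamini-Hochberg adjusted p under 0.05 over all genes tested), checked on simulated data; DESeq2 1.42.0 was an alternative. A planned comparison of subsets of T cells is not reported here. All members were named, with the 3 most alike genes for members with at least 100 UMIs, the 2 largest calls per direction of each list in the T cell contrasts, and the closest relatives. R 4.3.3 and Python 3.11.15 were used.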

Additional observations from a re-analysis of the deposited data

Results flagged for a closer look

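The members were also found in cells outside the 8 classes (266 at 7 weeks and 524 at 12 weeks), which no comparison used. Each level was above what a count of 3 UMIs gives in these cells, 1.41 CPM at 7 weeks and 0.837 CPM at 12 weeks. With the younger library first, Ptpn22 stood at 129 and 126 CPM, Ptpn2 at 44.6 and 48.0 CPM, and Ubash3a at 20.2 and 23.2 CPM. Sh2b3 stood at 16 and 7.53 CPM, Tyk2 at 13.6 and 9.48 CPM and Cd101 at 4.69 and 3.07 CPM. Slc11a1 stood at 9.85 and 1.95 CPM (21 and 7 UMIs), close in number at 7 weeks to the 24 UMIs of macrophages and dendritic cells together. Of the 21 UMIs, 15 were in 5 of the 57 cells that passed the gates of 2 lineages.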

How the results depend on the processing

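No paired analysis was possible between the ages because each age is 1 library. Between classes the sums of 1 library were already tied by a library term in the fit, and the setting without it is given with the results. Class contrasts were refitted under 9 other settings, of which keeping macrophages that pass a T gate was added after seeing the data. Of 378 refitted member values, 345 kept direction and side of the threshold, 10 lost a call, 1 gained one and 22 changed sign.

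None of the 22 was called in either fit. They were Ptpn22 in Foxp3+ against CD4 T cells (0.0084 in DESeq2, 0.092 without TMM, 0.0035 with median-of-ratios factors and 0.12 without cycling cells), Tyk2 there without cycling cells (-0.18) and Ptpn2 there in DESeq2 (-3.3e-05). For Tyk2 in pDC against dendritic cells they were 0.10 without TMM, 0.0011 with the gates as written and 0.27 without the doublet filter. In macrophages against dendritic cells Ptpn22 gave 0.024 in DESeq2, 0.035 with median-of-ratios factors, 0.091 with the gates as written, 0.080 without cycling cells and 0.073 with macrophages kept. Sh2b3 there gave -0.094 without TMM, -0.088 without the filter on low counts, -0.13 without a library term, -0.22 with the gates as written, -0.040 without the doublet filter, -0.12 without cycling cells and -0.23 with macrophages kept. Ubash3a in B cells against macrophages and dendritic cells gave -0.074 with macrophages kept. The cause was not tested.

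Counts of members called moved as follows. The share of all genes called in each of these settings is not given, so the moves are not a result about the members. With the gates as written they were 5 in T against B cells (all 3 main calls, Slc11a1 and Cd101) and 0 in Ncr1+ against T cells. B against macrophages and dendritic cells fell from 2 to 1 in DESeq2, without TMM and without a library term, Ncr1+ against T cells to 1 in DESeq2, and pDC against dendritic cells to 1 without TMM, without a library term and without the doublet filter. Members past 1.5-fold between ages were 1 in CD8 T cells without cycling cells (Ubash3a), 2 in B cells with the mean over cells and without the top cell (Ptpn22 and Sh2b3), and in dendritic cells 2 with the mean over cells, 1 without cycling cells and 1 without the top cell.

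Values of 1 library alone, which are log2 ratios of summed CPM and not the fitted measure, changed sign in 8 uncalled cases. The 7 week library, then the 12 week library, gave for Ptpn2 -0.38 and 0.30 in B against macrophages and dendritic cells, -0.33 and 0.45 in Foxp3+ against CD4 T cells, -0.40 and 0.99 in Ncr1+ against T cells, and -1.11 and 1.03 in pDC against dendritic cells. Sh2b3 gave 0.090 and -0.26 in macrophages against dendritic cells. Ubash3a gave 0.26 and -0.34 in CD8 against CD4 T cells, Ptpn22 0.28 and -0.094 in Foxp3+ against CD4 T cells, and Tyk2 -0.26 and 0.31 in pDC against dendritic cells.

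Shares depended on depth. Thinned to 4000 UMIs and unthinned, Ptpn22 in CD8 T cells was 58.1% and 67.3% at 7 weeks and 50.4% and 60.05% at 12 weeks, and Sh2b3 in B cells 21.0% and 22.9%, then 8.82% and 11%. Unthinned, Ptpn2 in Ncr1+ cells was 19.1% at 7 weeks, Slc11a1 in macrophages 58.1% at 12 weeks, and Ubash3a in CD4 T cells 18.6% and 16.9%. Cd101 in macrophages at 12 weeks was 0 with another seed and at 4000 UMIs. Of the 3 most alike genes, Spearman kept 0 for Ptpn22, Slc11a1 and Ubash3a and 1 for Ptpn2, and a pseudocount of 1 kept 1 for Tyk2 and Slc11a1 and 0 for Ubash3a.

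Scaling by library size alone moved the share of called genes that were higher from 48.4% to 70.1% in T against B cells, from 47.4% to 70.05% in Foxp3+ against CD4 T cells, from 43.6% to 59.0% in pDC against dendritic cells and from 56.6% to 44.3% in macrophages against dendritic cells. DESeq2 gave 68.1% in the last, and 69.9% against 57.2% in Ncr1+ against T cells. Depth limits Cd101, and all macrophage and pDC values at 7 weeks.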
